A study of Mus musculus with 3 samples.

Results

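Notch signalling genes were measured in the esophagus, stomach and intestine primordia of mouse embryos at embryonic day 11.5, the stage at which the gut tube is dividing into organs. The 10 genes are the receptors Notch1, Notch2 and Notch3, the ligands Dll1, Dll4, Jag1 and Jag2, and the target genes Hes1, Hey1 and Hey2. They were chosen by name, out of 16994 genes that could be named on the arrays, and 13 of 41112 probes with a value on every array belong to them. All embryos were of the ICR strain and carried no treatment, and the labels give no difference between groups other than the organ dissected. Each organ was hybridised to 1 one-colour (Cy3) Agilent expression array, so no difference below has a replicate check and no test across organs was possible. The labels state neither how many embryos went into a sample nor whether they were pooled, and their extraction text speaks of stomach for every sample, so the organ was taken from the title and the tissue label.

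Notch receptors are membrane proteins that are activated by ligands of the Delta-like and Jagged families on a neighbouring cell. Binding exposes the receptor to ADAM proteases and gamma-secretase, and the freed intracellular domain joins the DNA-binding protein RBPJ and a Mastermind coactivator to switch on Hes and Hey genes, which encode transcriptional repressors. In the embryonic gut the pathway is known from arterial endothelium (Dll4, Notch1, Hey1, Hey2), vascular mural cells (Notch3), enteric neural progenitors (Dll1, Hes1) and the epithelium, so a primordium holds several possible sources of each transcript. A lower signal in a whole primordium can reflect fewer cells of a type or less RNA per cell, and these cannot be told apart here.

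A level below is log2 of the processed signal of a gene's probe minus log2 of the array's 75th percentile, and a difference is the gap between 2 such levels in log2 units. Probes differ in how strongly they bind, so a level is compared between organs and never between genes. The esophagus array had a 75th percentile of 393 signal units, the stomach array 334 and the intestine array 1023, and 67.9% to 74.0% of spots were well above background. Marker lists were read to describe the dissections. They were chosen with earlier results of these data known, so they are no independent check. Genes of the esophagus list summed to 16.7 times the 75th percentile in esophagus, 2.55 in stomach and 0.667 in intestine. That of the stomach list was 28.3, 99.8 and 5.37, and that of the intestine list 0.128, 0.321 and 11.3, so each list was highest in its own organ. Heart markers summed to 132 in esophagus against 3.69 in stomach and 4.20 in intestine, and liver markers to 9.70, 4.40 and 61.7.

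By the probes used, 7 of the 10 genes were lower and 3 higher in stomach than in esophagus, 5 lower and 5 higher in intestine against esophagus, and 7 lower and 3 higher in intestine against stomach, most of them by less than 2-fold. The ligands Jag2 and Dll1 had the widest ranges over the organs, and the ligand Dll4 one of the narrower ones. In stomach Dll1 exceeded its esophagus level by 3.47-fold, while Jag2 was 2.58-fold and Jag1 2.27-fold lower. Set against esophagus, intestine had Dll1 2.53-fold higher and Jag2 and Notch1 3.76-fold and 2.77-fold lower. Between intestine and stomach, Jag1 was 1.32 log2 units higher in intestine by the probe used but −0.40 by its second probe, so its direction depended on the probe. Hey2 was also higher in intestine, as a bound from a dim probe that was lost after normexp background correction. Hes1 and Notch3 stood at nearly the same level on all 3 arrays under this scaling, and both were higher in intestine when arrays were scaled on spike-in controls (0.85 and 0.92 over esophagus).

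Counted at a 2-fold difference, 1 of the 10 genes was higher in stomach than in esophagus and 2 were lower. Of the 13736 genes compared there, 4.14% were higher and 5.71% lower by that size. In intestine against esophagus 1 was higher and 2 were lower, where the shares over 14458 genes were 8.40% and 11.5%. In intestine against stomach 2 were higher and 0 lower, where the shares over 14380 genes were 4.77% and 7.18%. With only 10 genes in the list, these counts describe the genes and do not set the list apart from the rest of the transcriptome. By the probes used, no member reached 4-fold in any comparison, although the other 2 probes of Notch2 did in intestine against esophagus. That is a size that 2.26%, 5.45% and 2.61% of all genes reached in either direction in the same order of comparisons. The median difference of members measured on both arrays was −0.68 in stomach against esophagus, against 0.15 over all genes. It was 0.0088 against 0.12 in intestine against esophagus, and −0.11 against −0.04 in intestine against stomach.

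The scaling between arrays bears on every value for intestine. Spike-in controls, synthetic RNAs added in fixed amounts, read 4.15 log2 units above the 75th percentile in esophagus, 4.14 in stomach and 3.27 in intestine. Scaling on them moved the median difference of all genes by 0.88 in intestine against esophagus and by 0.87 in intestine against stomach, and scaling on each array's median moved it by 0.50 and 0.30. Between intestine and esophagus, the split of all genes past 2-fold into higher and lower was 1215 to 1665, and it became 7041 to 624 with spike-in scaling, 3778 to 963 with median scaling and 1859 to 1346 with quantile normalization. Against stomach the split was 686 to 1033 and became 5078 to 220, 1264 to 577 and 862 to 711 under the same settings. For stomach against esophagus it was 569 to 784, and became 950 to 571 with median scaling and 824 to 672 with quantile normalization.

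**Figure D1:**
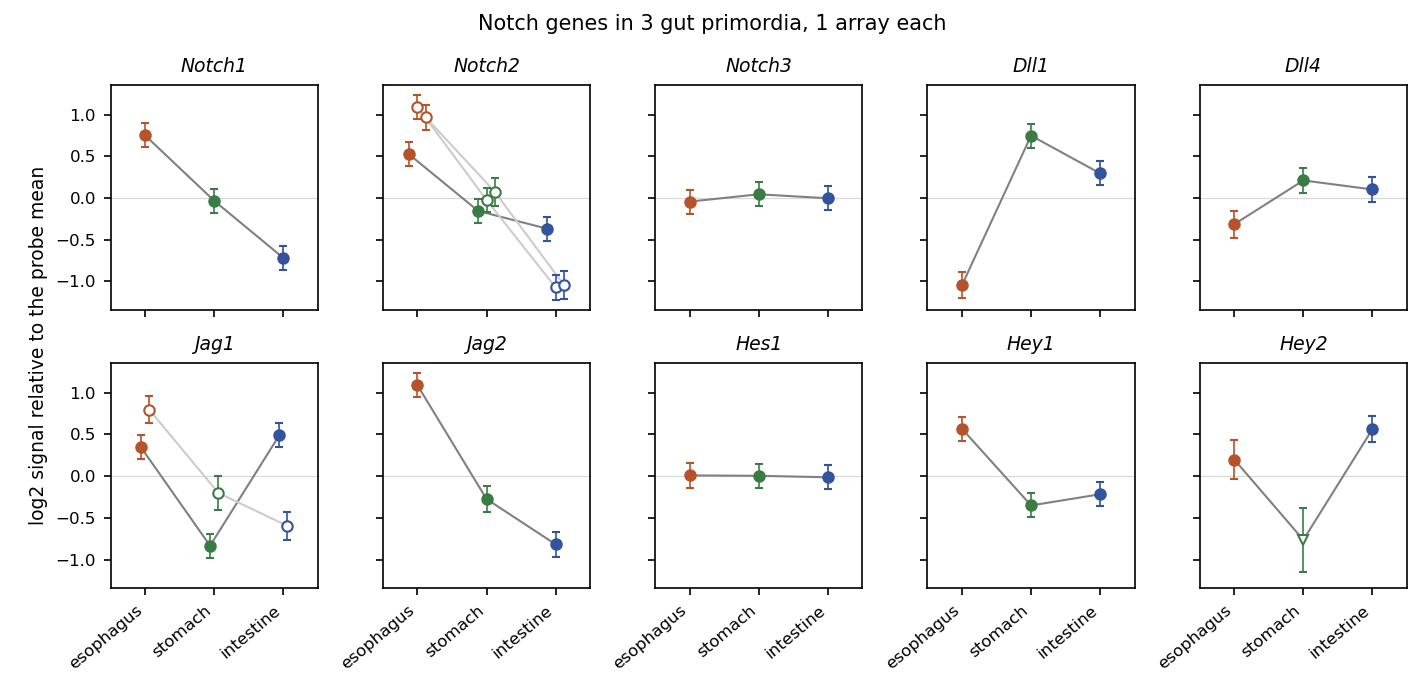
Log2 signal of each probe of the 10 Notch genes in esophagus, stomach and intestine (1 array each), relative to that probe's mean over the 3 arrays. Filled points are the probe used for the gene, open points its other probes, the open triangle a signal not well above background, and bars the scanner software's own error; Dll1 is highest in stomach, Notch1, Notch2 and Jag2 are highest in esophagus, and Hes1 and Notch3 are flat.

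As a yardstick for technical spread, different probes of the same gene disagreed by a median SD of 0.25 log2 units where stomach was set against esophagus. That SD was 0.46 between intestine and esophagus and 0.31 between intestine and stomach. The scanner software's own error on most member probes was close to 0.14 log2 units a level. Neither covers the variation between embryos or dissections.

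Among the receptors, Notch1, a receptor of endothelium and many progenitor cells, stood at −0.70 in esophagus, −1.49 in stomach and −2.17 in intestine. On the esophagus array it read 242 ± 24.2 signal units, with 119 in stomach and 227 ± 22.8 in intestine, where ± is the software's error. Both steps of this order, −0.78 from esophagus to stomach and −0.69 from stomach to intestine, exceeded the spread between probes. Notch1 was −1.47 in intestine against esophagus, and 6.90% of all genes compared were at least as much lower. That difference stayed negative under each of the 8 alternative settings and ranged from −1.47 to −0.59. The filter and probe settings could not move it, since Notch1 has only this probe and it was well above background on every array. The step from stomach to intestine turned to 0.19 with spike-in scaling.

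Notch2, a receptor widely used in mesenchyme and epithelium, was read by 3 probes. The probe used stood at 2.75 in esophagus, 2.08 in stomach and 1.86 in intestine. A second probe stood at −0.37, −1.49 and −2.54, and the third at −2.97, −3.87 and −4.99. All 3 probes gave the same order, highest in esophagus and lowest in intestine. They differed in size. For intestine against esophagus the probe used gave −0.89, within 2-fold, and the others −2.17 and −2.01, which are 4.49-fold and 4.03-fold. In intestine against stomach the probe used gave −0.21, inside the spread between probes, and the others −1.05 and −1.12. With spike-in scaling the difference from stomach to intestine was 0.66 by the probe used.

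Notch3, the receptor of vascular mural cells, stood at 2.62 in esophagus, 2.71 in stomach and 2.66 in intestine. Its 3 levels lay within 0.09 log2 units of one another, less than any of the technical spreads. With spike-in scaling Notch3 was 0.92 higher in intestine than in esophagus, close to the shift of all genes under that scaling. The mural marker list, read beside it because mural cells carry Notch3, summed to 97.0, 61.7 and 49.2 times the 75th percentile in esophagus, stomach and intestine. All 9 of its genes were well above background on every array, and in stomach against esophagus 3 of them were past 2-fold lower and 1, Kcnj8 (1.20), higher. Most of the summed signal came from the contractile genes Acta2 (−0.46 in that comparison by the probe used) and Tagln (−1.93), and Cspg4 differed by 0.06. The other 2 Acta2 probes gave −3.12 and −2.67 there.

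Dll1, the Delta-like ligand that neural progenitors present to their neighbours, showed the widest difference of any member in stomach against esophagus. Its probe is printed 10 times on each array, which gives the best technical precision in the set. On the esophagus array the 10 spots read between 38.3 and 49.1 signal units. They read between 116 and 148 in stomach and between 263 and 313 in intestine. Mean levels were −3.17 ± 0.10 in esophagus, −1.38 ± 0.11 in stomach and −1.83 ± 0.10 in intestine (SD over 10 spots of 1 array). On this scale the spots of each organ lay apart from those of every other organ, stomach and intestine included. Spots of 1 array are technical repeats, so their separation gives the precision of this probe and not variation between embryos. How many other probes separate in this way is not given. Dll1 was 1.79 higher in stomach than in esophagus, and 0.917% of all genes compared were at least as much higher. It was 1.34 higher in intestine than in esophagus, where 4.27% of genes were. Both differences kept their sign under the 8 alternatives, ranging from 1.04 to 2.06 and from 0.46 to 2.22. The lowest value of each came from normexp background correction, whose added offset weighs most on dim probes. The filter and probe settings could not move either difference, since Dll1 has only this probe and it was well above background on every array. The gap of −0.45 from stomach to intestine turned to 0.42 with spike-in scaling.

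**Figure D2:**
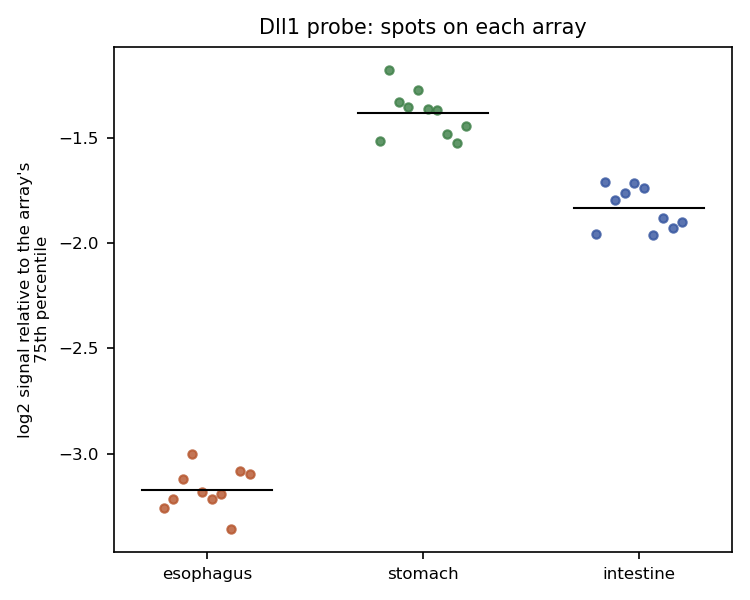
Log2 signal of the Dll1 probe relative to the array's 75th percentile, for the 10 spots of that probe on each of the 3 arrays, with a line at the mean of each array. The stomach spots (mean −1.38) and intestine spots (mean −1.83) lie above all esophagus spots (mean −3.17), and the spread within an array is technical only.

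The 250 bases before the start of Dll1 are shown because it had the widest difference in stomach, and because Hes and Hey proteins are known to repress Delta-like genes. The RefSeq promoter table (build GRCm38.p6) holds 2 start sites for Dll1, both on the minus strand, and the array does not say which start its transcript used. Capitals mark the class C box CACGNG, a letter pattern that Hes and Hey repressors bind, searched on both strands. It occurs once in each window.
Dll1, chr17:15375824-15376073: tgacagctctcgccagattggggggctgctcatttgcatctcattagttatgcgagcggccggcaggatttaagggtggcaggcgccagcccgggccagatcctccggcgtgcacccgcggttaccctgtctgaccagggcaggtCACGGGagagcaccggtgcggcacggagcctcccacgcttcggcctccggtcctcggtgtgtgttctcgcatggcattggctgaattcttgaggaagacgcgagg
Dll1, chr17:15376933-15377182: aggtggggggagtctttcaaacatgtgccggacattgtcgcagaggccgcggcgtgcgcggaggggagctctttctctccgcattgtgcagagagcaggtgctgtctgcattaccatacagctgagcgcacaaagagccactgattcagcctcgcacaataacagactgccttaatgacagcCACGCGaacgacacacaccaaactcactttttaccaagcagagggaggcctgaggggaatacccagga
Of all 32851 promoter windows of the same length, 23.5% hold this pattern. Of the 10 members, 8 matched an entry of the table, with 9 windows in all, and Hes1 and Hey1 matched none. The pattern occurs in windows of 5 members, Notch2, Notch3, Dll1, Dll4 and Jag1. A match is a description of the letters and not a measured binding site.

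Dll4, the ligand of arterial endothelium, stood at −3.72 in esophagus, −3.19 in stomach and −3.30 in intestine. Its probe was dim, with signals of 29.9, 36.6 and 104 in these organs. Its difference of 0.53 in stomach against esophagus exceeded the spread between probes but stayed within 2-fold, and 17.0% of all genes were at least as much higher. The levels in stomach and intestine differed by 0.11, inside that spread, and the difference of 0.42 between intestine and esophagus was also inside it. After normexp correction Dll4 was 0.36 in stomach against esophagus, −0.24 in intestine against esophagus and −0.60 in intestine against stomach. With spike-in scaling the difference of intestine and esophagus was 1.29. Endothelial markers had a median of −0.31 in stomach against esophagus, with 2 of 16 past 2-fold lower, Tek (−1.60) and Erg (−1.95), and 0 higher. All 16 were well above background on each array, and they summed to 33.8, 29.6 and 37.0 times the 75th percentile in esophagus, stomach and intestine. Dll4, by its dim probe and within 2-fold, and the median of the endothelial list had opposite signs in stomach against esophagus. Why they differed was not tested. The 7 measured arterial markers had a median of −0.15 in that comparison, and Cxcr4 (1.20) was the only one past 2-fold. Gja4 (0.66) was positive as Dll4 was, Efnb2 gave 0.49 and −0.08 by its 2 probes, and Gja5 (−0.15), Acvrl1 (−0.18), Nrp1 (−0.24) and Unc5b (−0.39) were negative.

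Jag1, a Jagged ligand of mesenchyme, endothelium and epithelium, was lowest in stomach by the probe used. Its levels were 0.92 in esophagus, −0.26 in stomach and 1.06 in intestine, from signals of 743 ± 74.3, 279 ± 27.9 and 2134 ± 213. It was −1.18 in stomach against esophagus, where its second probe gave −0.999. The probes disagreed on intestine. By the probe used Jag1 was 1.32 higher in intestine than in stomach and 0.14 higher than in esophagus, while the second probe gave −0.40 and −1.40. The second probe was dim, with signals of 32.4, 13.8 and 32.1 in esophagus, stomach and intestine. The lower level in stomach than in esophagus was therefore seen with both probes, and the level in intestine depended on the probe.

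Jag2, a Jagged ligand known from stratified and sensory epithelia, had the widest range of the members by the probes used, narrower than the ranges of the other 2 Notch2 probes. It stood at −1.58 in esophagus, −2.95 in stomach and −3.49 in intestine, from signals of 131 ± 13.2, 43.3 ± 4.53 and 90.9 ± 9.28. Esophagus was high and the other organs were low. Jag2 was −1.37 in stomach against esophagus and −1.91 in intestine against esophagus, where 3.33% and 4.12% of all genes were at least as much lower. In the 8 alternatives these differences ranged from −1.37 to −0.69 and from −1.91 to −1.03. The filter and probe settings could not move them, since Jag2 has only this probe and it was well above background on every array. The step of −0.54 from stomach to intestine turned to 0.33 with spike-in scaling. The esophagus marker list holds the regulators Tbx1, Pax9, Trp63 and Sox2 and the keratins Krt5 and Krt14. Of its 6 genes, 4 were past 2-fold lower in stomach and 5 in intestine, each against esophagus. Krt14 was within 2-fold in both (0.08 and 0.19), and Sox2 in stomach (−0.47). The part of this list in the Jag2 difference was not tested.

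The ligands can be set against each other within an array, where scaling between arrays cancels. Dll1 and Jag2 had the highest and lowest differences of the members against esophagus, so by the probes used their ratio changed most there. The ratio of Dll1 to Jag2 signal was 8.93-fold larger in stomach than in esophagus and 9.51-fold larger in intestine than in esophagus. Between intestine and stomach it changed by 1.06-fold. After normexp background correction the first 2 changes were 3.30-fold and 3.97-fold. The ratio of Dll1 to Jag1 was 7.86-fold larger in stomach than in esophagus, and 4.07-fold after normexp correction. In intestine it was 2.29-fold larger than in esophagus, or 1.15-fold after normexp correction, and 3.43-fold smaller than in stomach, or 3.55-fold. With the mean of both Jag1 probes the intestine changes were 3.91-fold larger and 1.89-fold smaller. Such ratios show that the ligands changed unequally, not which of them changed.

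**Figure D3:**
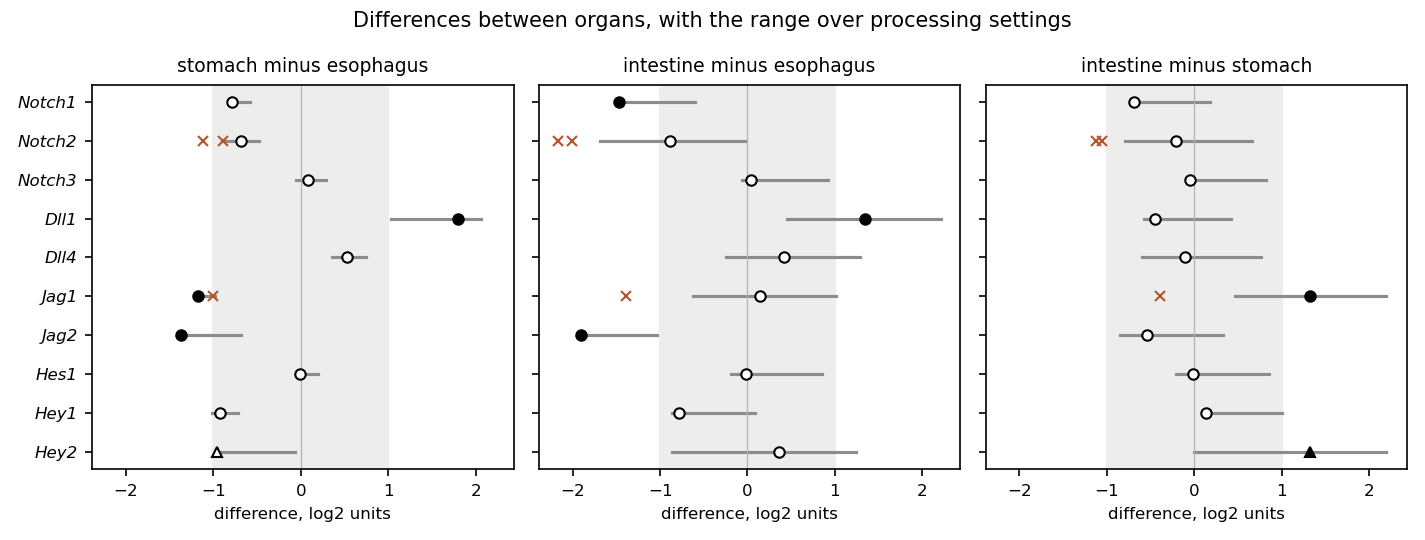
Difference in log2 units between organs for the 10 Notch genes in the 3 comparisons. Points are the values reported (black where at least 2-fold, triangles where a bound), grey lines the range over the main and alternative settings, crosses other probes of the gene, and the grey band differences within 2-fold; Dll1 and Jag2 lie on opposite sides in both comparisons with esophagus, and the crosses of Jag1 lie apart from its point where intestine is compared.

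Of the target genes, Hes1, the repressor that keeps progenitors undifferentiated, stood at −1.31 in esophagus, −1.31 in stomach and −1.33 in intestine. Its differences of −0.0044, −0.02 and −0.02 in the 3 comparisons were smaller than the technical spreads. Under spike-in scaling it was 0.85 higher in intestine than in either of the other organs, and with median scaling 0.48 higher than in esophagus and 0.28 higher than in stomach. A flat level on 1 array per organ does not show that Hes1 was equal in the organs.

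Hey1, a repressor induced by Notch in endothelium, heart and mesenchyme, stood at 1.89 in esophagus, 0.97 in stomach and 1.11 in intestine. It was −0.92 in stomach against esophagus and −0.78 in intestine against esophagus, just within 2-fold, and 6.47% and 14.9% of all genes were at least as much lower. Its levels in stomach and intestine differed by 0.13, inside the spread between probes. The difference of intestine and esophagus turned to 0.09 with spike-in scaling, and that of stomach and esophagus reached −1.01 with quantile normalization.

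Hey2, which acts with Hey1 in arteries and in the ventricles of the heart, was the dimmest member. It stood at −4.67 in esophagus and −4.31 in intestine, and it was not well above background in stomach. Its signals in esophagus, stomach and intestine were 15.4 ± 2.47, 6.71 ± 1.80 and 51.6 ± 5.65. Against stomach, Hey2 was 1.95-fold higher in esophagus and 2.51-fold higher in intestine, each given as a bound. Each bound is taken against the higher of the stomach signal and the lowest signal well above background on that array. That was the stomach signal itself here, so the true fold can be smaller within its error. Esophagus and intestine differed by 0.36, inside the spread between probes. After normexp correction Hey2 was −0.86 in intestine against esophagus and held no fold against stomach, so its differences rest on low signals.

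The Hey2 window is shown because it alone, among the members with an entry, held the core TGGGAA of RBPJ sites on either strand, here as its reverse complement in capitals, 207 bases before the start. The match extends to the longer form GTGGGAA. Of all windows, 21.6% hold the core and 5.42% the longer form. The window lies on the minus strand of GRCm38.p6 in RefSeq and holds no class C box.
Hey2, chr10:30842784-30843033: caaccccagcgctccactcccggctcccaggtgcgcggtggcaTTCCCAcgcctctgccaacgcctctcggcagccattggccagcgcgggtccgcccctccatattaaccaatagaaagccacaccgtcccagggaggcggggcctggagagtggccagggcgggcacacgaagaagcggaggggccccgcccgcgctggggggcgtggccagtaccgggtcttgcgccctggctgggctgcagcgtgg

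Heart markers moved with the members that were highest in esophagus. In stomach against esophagus 11 of 12 heart markers were past 4-fold lower and the median of the list was −5.65. For intestine it was also 11 of 12, and the median was −6.07. Notch1, Notch2, Jag2 and Hey1 were also highest in esophagus, by differences of at most 1.91 for the probes used. All 12 heart markers were well above background on each array. The part of heart tissue in the levels of these genes was not tested.

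Other genes of the pathway were read from lists of 51 genes, of which 46 had a named probe and 45 were measured in each comparison. Most lay within 2-fold. In stomach against esophagus 4 of 45 were at least 2-fold higher and 1 lower, where the shares over all genes were 4.14% and 5.71%. Their median was 0.12 against 0.15 over all genes. In intestine against esophagus 5 were higher and 9 lower, where the shares were 8.40% and 11.5%, with a median of −0.03 against 0.12. In intestine against stomach 1 was higher and 3 were lower, where the shares were 4.77% and 7.18%, with a median of −0.29 against −0.04.

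Among the other ligands and receptors, Dll3, a Delta-like protein that dampens Notch within the same cell, followed the order seen for Dll1. It stood at −1.70 in esophagus, −0.11 in stomach and −0.65 in intestine, and was 1.60 higher in stomach and 1.06 higher in intestine than in esophagus. Dlk1, a related protein without the usual receptor-binding domain, stood at 3.33, 3.73 and 4.94 and was highest in intestine, by 1.60 over esophagus and 1.20 over stomach. Notch4, a receptor of endothelium, stood at 0.06, 0.06 and 0.20 and differed by at most 0.14. Dlk2 had no named probe.

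Hes5, a Notch target of neural progenitors, stood at −3.08 in esophagus, −2.01 in stomach and −2.89 in intestine. It was 1.07 higher in stomach than in esophagus and the only one of the other Hes and Hey genes to differ 2-fold in any comparison. Nrarp, a feedback inhibitor induced by Notch, stood at −3.31, −2.88 and −3.10 and stayed within 2-fold throughout. Heyl, the third Hey gene, stood at 0.21, −0.18 and −0.75 by the probe used, and its second probe gave 0.17 where the first gave −0.39 in stomach against esophagus. Hes3 was not well above background on any array.

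In the nuclear complex, Rbpj stood at 1.27, 1.11 and 0.82 and Maml1 at 0.62, 0.79 and 1.02 in esophagus, stomach and intestine, all within 2-fold. The Groucho-type corepressors, which Hes proteins recruit, went different ways. Tle4 was 1.28 higher in stomach and 1.53 higher in intestine than in esophagus, and Tle3 was 1.07 higher in intestine. Tle1 was −1.25 in intestine against esophagus and −1.54 against stomach, and Tle2 was −1.38 in intestine against esophagus. The coactivator Ep300 was −1.02 in intestine against esophagus by the probe used and −2.12 by its second probe.

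Among genes that process the receptor, Adam10, the protease that makes the first ligand-dependent cut, had the largest differences. It stood at 0.95 in esophagus, −0.26 in stomach and −1.78 in intestine, which is −1.21 in stomach and −2.73 in intestine against esophagus. The other 7 measured cleavage genes stayed within 2-fold in every comparison. Of the 5 glycosylation genes, Pofut1, which adds O-fucose to the receptor, was −1.07 in intestine against esophagus, and the fringe genes Lfng, Mfng and Rfng stayed within 2-fold by the probes used, although a second Lfng probe gave −1.23 there.

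Dtx4 and Dtx1, members of the Deltex family of ubiquitin ligases, had opposite signs in intestine. Dtx4 stood at 1.90, 3.06 and 3.90, and all 3 of its probes placed it higher in intestine than in esophagus, by 2.002 to 2.13. Dtx1 stood at 1.25, 0.92 and −0.81 and was −2.06 in intestine against esophagus and −1.73 against stomach. Itch (−1.82), Numb (−1.33) and Mib1 (−1.15), which act in receptor or ligand trafficking, were also lower in intestine than in esophagus. The Itch probe was dim, at −4.18 in esophagus and −6.00 in intestine. The shift of 0.88 over all genes with spike-in scaling in this comparison bears on these values too.

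**Figure D4:**
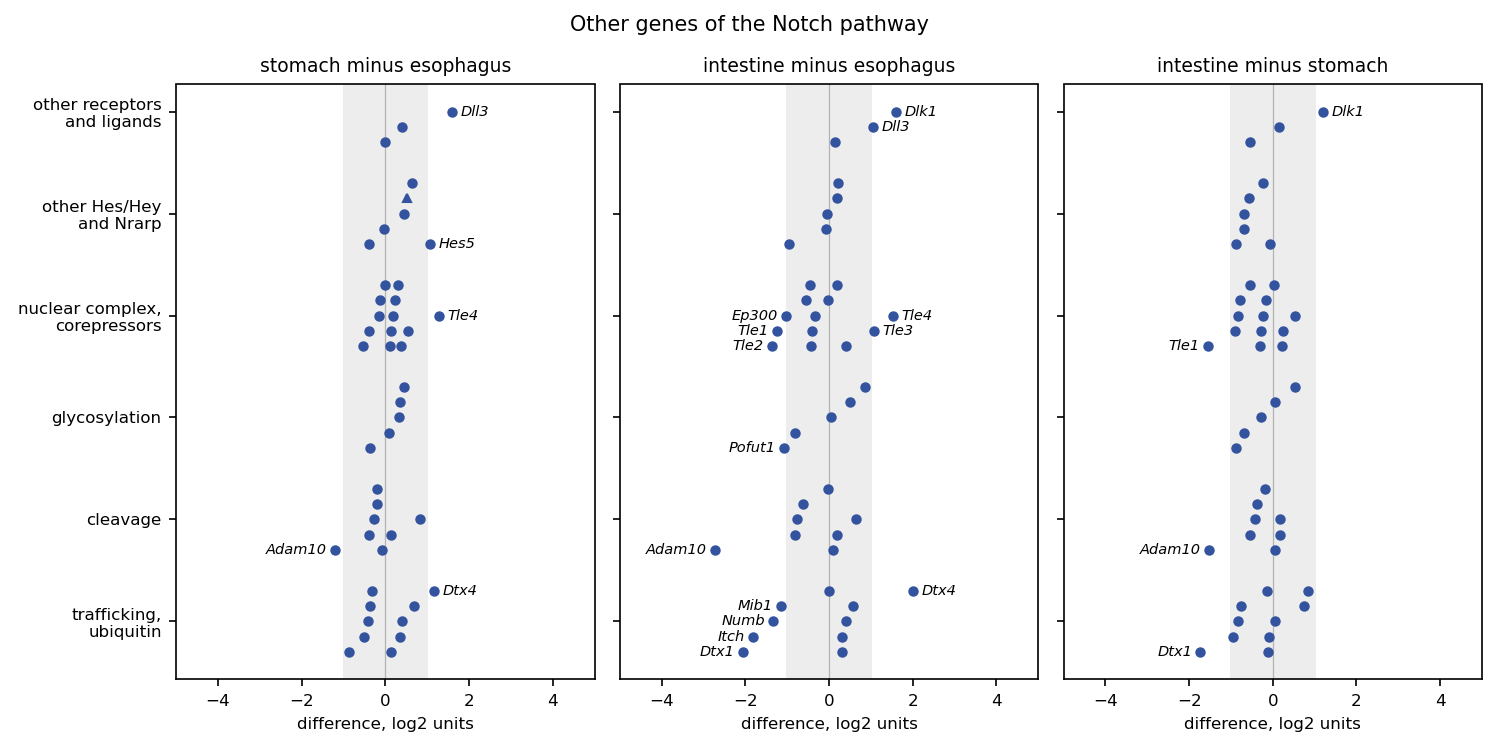
Difference in log2 units between organs for the other measured genes of the Notch pathway, grouped by role, with names where the difference was at least 2-fold and triangles for bounds. The grey band holds differences within 2-fold; most genes lie inside it, and Adam10 (−2.73), Dtx1 (−2.06) and Dtx4 (2.002) lie farthest out in intestine against esophagus.

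Proneural factors, which Hes repressors oppose, were read beside the ligands. Atoh1, a factor of secretory and sensory cells, stood at −2.36 in stomach and was not well above background in esophagus or intestine, so its excess in stomach was at least 10.9-fold over esophagus and at least 24.4-fold over intestine. Insm1 was 1.06 higher in intestine than in esophagus. Neurog2 and Neurod1 were not well above background on any array.

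Most neural markers were higher in stomach than in esophagus, as Dll1, Dll3 and Hes5 were, but the list was split in intestine against esophagus. In the enteric neural crest and neuron list 6 of 9 measured genes were past 2-fold higher in stomach against esophagus, with a list median of 1.54, among them Ret (1.94) and Tubb3 (1.56). Ednrb (−1.03) was lower, and Erbb3 (−0.69) was negative. In intestine against esophagus 3 were higher and 3 lower, with a median of 0.70, and Hes5 differed there by 0.20. The higher ones were Tubb3 (1.32), Elavl4 (1.36) and Stmn2 (1.60), and the lower ones Ednrb (−1.33), Gfra1 (−1.37) and Erbb3 (−2.97). Second probes of Ednrb and Gfra1 gave −0.01 and −0.18. In intestine against stomach 0 were higher and 3 lower, with a median of −0.70. The list summed to 15.4, 16.4 and 12.4 times the 75th percentile in the 3 organs, all 9 genes were well above background on every array, and none was at 0. Of 10 epithelial markers, the keratins Krt8 (1.55), Krt18 (1.71) and Krt19 (1.07) were past 2-fold higher in stomach against esophagus and the other 7 stayed within 2-fold, among them Cdh1 (−0.17), Foxa2 (−0.36) and Shh (−0.52). The list summed to 44.3, 106 and 57.0 in the 3 organs, mostly from Krt8 and Krt18. The part of either cell type in the Dll1 difference was not tested.

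**Figure D5:**
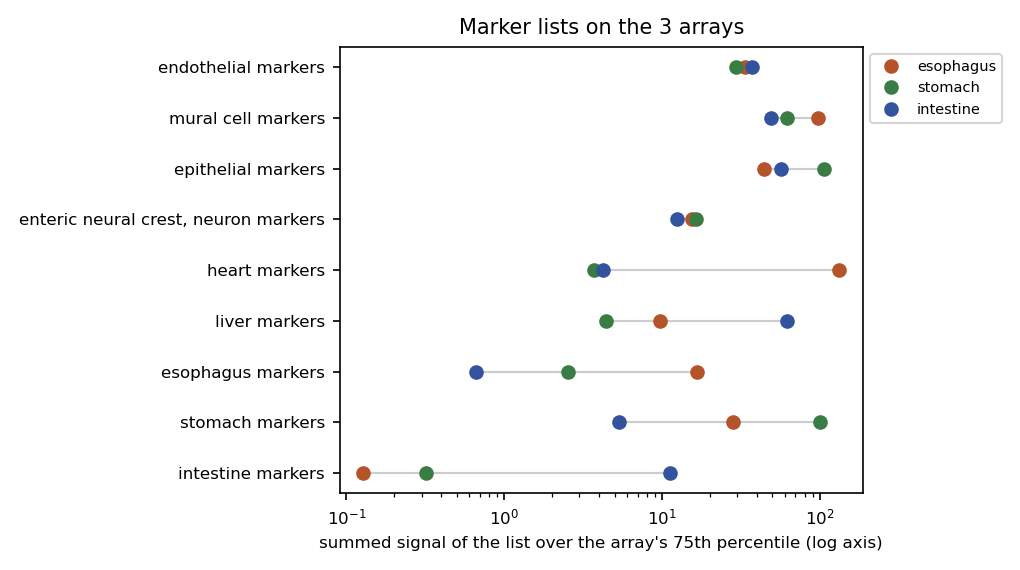
Summed signal of each marker list over the array's 75th percentile (log axis) in esophagus, stomach and intestine, 1 array each. The heart list is highest in esophagus (132), the liver list in intestine (61.7) and each organ's own list in that organ, while the endothelial list lies between 29.6 and 37.0.

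The named genes whose levels followed Jag2 most closely over the 3 arrays were Nfatc1, Slc2a12 and Timp3, at distances of 0.03, 0.04 and 0.04 log2 units after each gene was centred on its own mean. Nfatc1 stood at −1.08, −2.42 and −2.95 in esophagus, stomach and intestine. With only 3 arrays, 319 of the 12687 genes compared lay within 0.5 log2 units of Jag2.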

How the data were processed

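Total RNA from each organ primordium was labelled with Cy3 from low input and hybridised to 1-colour Agilent arrays, per the labels' protocols. In the scanner files each spot has an intensity that Agilent Feature Extraction (10.5.1.1) background-subtracted and spatially detrended, with no scaling between arrays, per the file headers. A deposited table of log2 values matched these minus the 75th percentile and a constant for 99.8% to 99.9% of probes, within 0.01. Here outlier spots (70 to 111 an array) were left out, no spot was saturated, and log2 intensity minus the array's 75th percentile over 43379 non-control spots was averaged over the spots of a probe. Probes were named through the accession column and RefSeq (GRCm38.p6), 24334 with 1 symbol and 16778 without. A gene was represented by its probe with the highest mean. Genes well above background on at least 1 of 2 arrays were compared, as a bound where only 1 measured them. The lowest such signals were 7.03 in esophagus, 5.85 in stomach and 8.17 in intestine. Normexp used the median signals with an offset of 50 (limma 3.58.1). Steps were tested on simulated data. All 3 arrays share 1 slide and scan, so position and organ cannot be told apart. Named genes were the members, listed pathway genes at least 2-fold apart or defining the pathway, defining markers, and the 3 genes most like the member with the widest range. Members and lists were chosen with earlier results of these data known. Some listed genes are not reported here.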

Additional observations from a re-analysis of the deposited data

How the results depend on the processing

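No paired analysis was possible because each organ has 1 array and the organs share fewer than 2 replicate numbers. With 1 array per organ, nothing here measures variation between embryos, and signal over background limits dim probes such as those of Hey2 and Dll4 and the second Jag1 probe. Settings that used another scaling, background correction, source, filter or probe left most member counts within 1.5 times those reported. In stomach against esophagus the count of members at least 2-fold lower went from 2 to 1 with median scaling and to 0 with normexp correction. In intestine against esophagus the count higher went from 1 to 4 with spike-in scaling and to 0 with normexp correction, and the count lower from 2 to 1 with median scaling and to 1 with spike-in scaling. In intestine against stomach the count higher went from 2 to 1 with normexp correction, to 1 with signal well above background on both arrays, which leaves out Hey2, and to 1 with the mean of all probes, which averages the disagreeing Jag1 probes. Apart from the last 2, the cause was not tested. Over all genes, normexp correction left 161 higher and 272 lower in stomach against esophagus, 655 and 1741 in intestine against esophagus, and 268 and 1752 in intestine against stomach. Without the filter on dim probes these were 975 and 1122, 1643 and 3100, and 969 and 2526. With spike-in scaling 20 of the 30 member differences moved by more than the spread between probes, with median scaling 10, with normexp correction 8, with the mean of all probes 4 and with quantile normalization 3. The deposited values moved none of the 30. Reading Jag1 from its second probe, an alternative chosen after seeing the data, turned its difference between intestine and stomach from 1.32 to −0.40. Naming probes by a gene name column was not run, since the scanner files hold no such column.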
